A study of Mus musculus with 6 samples.

Results

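Cyclins are the regulatory subunits that switch on the cyclin-dependent kinases (CDKs). The D-type cyclins pair with CDK4 and CDK6 and start the inactivation of the retinoblastoma protein, the E-type cyclins drive entry into S phase with CDK2, the A-type cyclins act in S phase and G2, and the B-type cyclins activate CDK1 at mitosis. Ccna1 and Ccnb3 are cyclins known mainly from germ cells. In the embryonic cortex the cyclins of the mitotic cycle mark the dividing radial glia and intermediate progenitors, and the transcript of Ccnd2 is carried to the basal endfeet of radial glia.

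The 10 cyclin genes Ccnd1, Ccnd2, Ccnd3, Ccne1, Ccne2, Ccna1, Ccna2, Ccnb1, Ccnb2 and Ccnb3 were chosen by name, with every probe set that the platform annotation gives to 1 of them alone. This yielded 21 probe sets for 9 of the 10 genes, out of 45037 probe sets in all. Ccnb1 was given no probe set by that annotation and is not analysed here. Ccnd2 had 7 probe sets, Ccnd1 and Ccnd3 had 3 each, Ccne1 and Ccna2 had 2 each, and Ccne2, Ccna1, Ccnb2 and Ccnb3 had 1 each.

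RNA of the dorsal telencephalon, from which the cerebral cortex forms, was hybridised to 6 single-colour Affymetrix arrays at E14.5, an embryonic stage of cortical neurogenesis. The 3 wild-type (WT) and 3 conditional knockout (cKO) arrays are all labelled male and C57BL\6. In the cKO the histone H3 lysine 9 methyltransferase ESET (Setdb1) is deleted by Emx2Cre, a Cre recombinase named after a gene of dorsal forebrain progenitors, and the sources used here do not say if WT embryos had Cre. The design text speaks of 3 embryos a genotype, so each array is taken as 1 embryo. This is an assumption, and the sex-linked values below put it in doubt for cKO 3. Tissue outside the reach of Cre may keep Setdb1. The comparison asks how loss of ESET alters transcript levels in these progenitors and their progeny.

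Of 10 dorsal telencephalon markers 8 were measured, with summed intensities of 36876 to 44899, and their brightest was Neurod6, a gene of young cortical neurons. In cKO 5 of the 8 were lower and 3 higher, and limma called 0 after adjustment. Groups were apart on 2, Emx2 and Eomes, both lower. Over all 18193 genes, 1390 were apart and lower on their brightest probe set. Emx2, the gene named in Emx2Cre, ran from 1129 to 1395 in WT and from 647 to 743 in cKO. Its log2 fold change was -0.83 (limma adjusted p = 0.142), and the cause was not tested. Setdb1 on its brightest probe set ran from 1033 to 1185 in WT and from 500 to 704 in cKO (log2 fold change -0.83, SE 0.18, limma adjusted p = 0.237). Both arrays numbered 3 stood apart. WT 3, labelled male, had Xist at 17294 and the Y-linked Eif2s3y at 22.2, and cKO 3 had Xist at 8811 beside Eif2s3y at 961. Xist was between 34.1 and 59.0 on the other arrays. The values of WT 3 thus go against its male label. cKO 3 held both signals, so its male label and its origin from 1 embryo are uncertain. Summed over 10 measured erythroid markers of 13 listed, intensities were 69538 on WT 3 and 74170 on cKO 3, against 11332 to 17310 elsewhere. The main results are therefore also given without both arrays numbered 3.

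Of the 21 cyclin probe sets, 1 rose in cKO and 0 fell past an adjusted p of 0.05 in limma, with Benjamini-Hochberg adjustment over all 45037 probe sets. The riser was the probe set of Ccnb3. Over all probe sets 0.224% rose and 0.0511% fell, which is 101 and 23 probe sets, so 81.5% of the calls were rises. With arrays centred on their medians 70.3% were. At an unadjusted p under 0.05, 6 cyclin probe sets were lower and 1 was higher, against backgrounds of 3.33% lower and 4.57% higher. These 6 were 5 probe sets of Ccnd2 and that of Ccne2. The count of 6 came to 5 without WT 1, 2 without WT 2 and 2 without WT 3. It was 5 without cKO 1, 3 without cKO 2 and 8 without cKO 3. Without both arrays numbered 3 it was 7. The WT and cKO arrays did not overlap on 6 probe sets that were lower and 1 that was higher, where 6.07% and 7.47% of all probe sets were apart in those directions. Without Ccnb3 the median log2 fold change of the other 20 probe sets was -0.23, with 15 lower and 5 higher, and over all probe sets the median was 0.02. Of those 20 probe sets, 7 belong to Ccnd2. Probe sets of 1 gene share a transcript and are not independent. On the brightest probe set of each of the 9 cyclins, Ccnb3 included, the median was 0.04, with 5 higher and 4 lower. That median over all genes was 0.01.

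**Figure D1:**
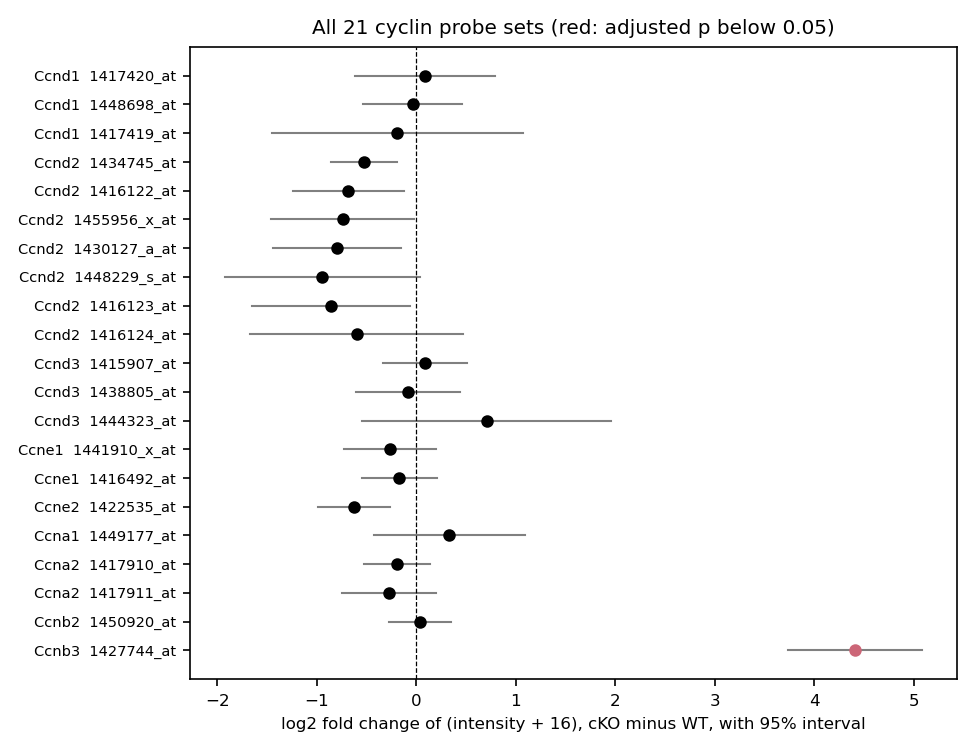
Log2 fold change (cKO minus WT, of intensity plus 16) with its 95% interval for each of the 21 cyclin probe sets, with 3 arrays a group. Ccnb3, in red, lies at 4.41, and the other 20 lie between -0.94 and 0.71.

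Ccnb3 encodes the B-type cyclin that acts in meiosis and is needed for anaphase of the first meiotic division in oocytes. Its intensity was 9.25 on WT 1, 4.07 on WT 2 and 12.8 on WT 3, and 593 on cKO 1, 637 on cKO 2 and 336 on cKO 3. The 3 WT arrays were all below the pseudocount of 16, and the lowest cKO array lay far above the highest WT array. Among the cKO arrays, cKO 3 was the lowest.

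The group means of Ccnb3 were 8.70 ± 4.39 in WT and 522 ± 162 in cKO (SD, n = 3). It rose by 4.41 on the log2(intensity + 16) scale (SE 0.28, 95% interval 3.74 to 5.08, limma adjusted p = 0.00529). The pseudocount sets the size of this value, which came to 5.81 with a pseudocount of 1 and 2.97 with 64. By size of rise the probe set stood 8th among 45037, and Ccnb3 stood 5th among 18193 genes represented by their brightest probe set, meaning the one with the highest mean log2 value. Without both arrays numbered 3 the value was 4.81 (SE 0.20, limma adjusted p = 0.0472). The call ended without WT 1 (4.43, limma adjusted p = 0.0519) and held in the other 5 fits that left out 1 array.

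Markers of germ cells, the cells in which Ccnb3 is normally found, were higher on the same arrays. Of 7 listed germ cell markers, all but Pou5f1 had a higher mean intensity in cKO and 4 rose past the threshold, where 0.291% of 18193 genes rose on their brightest probe set. The list had summed intensities of 138 to 232 in WT and 1800 to 2368 in cKO. Those 4 were Ddx4, Mael, Stag3 and Sycp3. Earlier results of these data had shown their rise before the list was made. The count of 4 beside that share is therefore a description and no independent test. Dazl did not pass, but its groups were apart, at 16.1 to 31.1 in WT and 47.6 to 65.7 in cKO (log2 fold change 0.91, limma adjusted p = 0.227). Pou5f1, a marker of pluripotent and primordial germ cells, was between 1.84 and 41.5 in WT and between 1.94 and 28.2 in cKO, with means of 15.8 and 14.6, so its groups overlapped. Dppa3, another such marker, ran from 25.6 to 44.0 in WT and from 36.8 to 47.1 in cKO. The part of germ cells in the Ccnb3 signal was not tested.

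The 5 named genes whose values over the 6 arrays lay closest to those of Ccnb3 were Gramd1c, Ddx4, Rnf17, Tspan4 and Galr1. Closeness was the mean absolute difference of log2(intensity + 16) after centring each gene on its own mean, and it ran from 0.22 for Gramd1c to 0.42 for Galr1. Gramd1c shared the low cKO 3, at 1009 against 1532 on cKO 1 and 1861 on cKO 2. Rnf17 and Galr1 were also lowest there among the cKO arrays, at 431 and 213. Ddx4 read 600 on cKO 3, close to the 580 of cKO 1, and Tspan4 was lowest on cKO 2, at 2024. The 5 were picked for closeness to Ccnb3 on these same arrays, so their likeness to it is no separate result.

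The promoters of Ccnb3 and of its mitotic relative Ccnb2 are shown because one transcript rose and the other had nearly equal group means. Each is the 250 bases before the annotated start, 5′ to 3′ on the gene's strand, from RefSeq on GRCm38.p6. Capitals mark matches on either strand to a CCAAT box (CCAAT), the cell cycle element known as CHR (TTTGAA), an E-box (CACGTG) and an E2F site (TTTNNCGC). No 2 matches overlap. The Ccnb3 window is chrX:7041620-7041869 and the Ccnb2 window chr9:70421555-70421804, both on the minus strand.
Ccnb3: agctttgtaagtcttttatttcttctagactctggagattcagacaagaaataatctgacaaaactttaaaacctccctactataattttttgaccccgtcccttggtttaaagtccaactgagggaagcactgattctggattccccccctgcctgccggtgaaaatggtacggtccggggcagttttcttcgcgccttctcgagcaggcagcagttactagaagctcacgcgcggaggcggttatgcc
Ccnb2: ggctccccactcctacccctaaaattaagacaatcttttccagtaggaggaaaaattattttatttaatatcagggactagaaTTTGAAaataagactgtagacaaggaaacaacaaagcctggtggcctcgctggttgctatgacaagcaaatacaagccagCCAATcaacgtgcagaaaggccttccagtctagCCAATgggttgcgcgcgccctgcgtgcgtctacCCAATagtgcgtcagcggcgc

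The Ccnb2 window held 3 CCAAT boxes, which begin 87, 54 and 21 bases before the start, and 1 CHR match 167 bases before it. The Ccnb3 window held none of the 4 motifs. Of 32817 promoter windows of this length, 33.8% held a CCAAT box, 16% a CHR match, 6.02% an E-box and 4.28% an E2F match. The Ccnb3 window had 11 CpG dinucleotides and a GC content of 48.0%, and that of Ccnb2 had 10 and 47.6%, where the medians over all windows were 6 and 52.4%. Promoter sequences were held for 6 of the 10 genes. That of Ccna1, the other cyclin of germ cells, had 26 CpG dinucleotides and a GC content of 71.2%.

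Ccna1, an A-type cyclin required for male meiosis, was dim. Its intensity was 40.9 on WT 1, 22.2 on WT 2 and 17.1 on WT 3, and 59.1 on cKO 1, 34.2 on cKO 2 and 21.9 on cKO 3. The groups overlapped, and in both the array numbered 3 was the lowest. Its log2 fold change was 0.33 (SE 0.32, 95% interval -0.43 to 1.09, limma adjusted p = 0.912). The difference in response between Ccna1 and Ccnb3 was not tested.

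**Figure D2:**
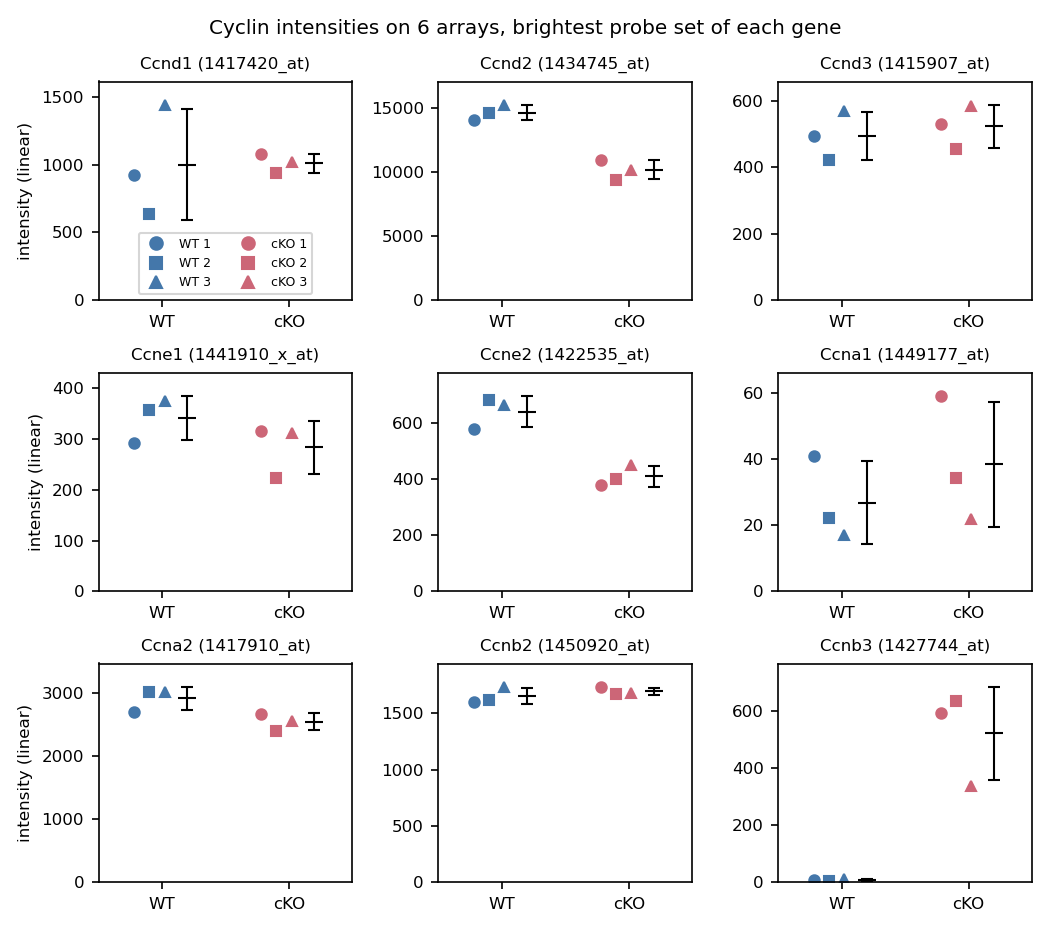
Intensity (linear scale, each panel with its own axis from 0) on the 6 arrays for the brightest probe set of each cyclin, with the mean and SD of 3 arrays beside the points. Ccnd2, Ccne2, Ccna2 and Ccnb3 have groups that do not overlap, and the other 5 overlap.

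Ccnd2, a D-type cyclin of cortical progenitors, was lower in cKO on each of its 7 probe sets. But limma called 0 of them after adjustment and 5 had an unadjusted p under 0.05, where 3.33% of all probe sets were lower at that p. On the brightest, its intensity was 14069 on WT 1, 14607 on WT 2 and 15251 on WT 3, and 10919 on cKO 1, 9429 on cKO 2 and 10212 on cKO 3. The groups did not overlap and each spread little. The means were 14642 ± 592 and 10186 ± 745 (SD, n = 3), giving a log2 fold change of -0.52 (SE 0.14, 95% interval -0.85 to -0.20, limma adjusted p = 0.340). In bulk tissue, fewer cells that express a gene and less RNA in each cell cannot be told apart.

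Across the 7 Ccnd2 probe sets the log2 fold change ran from -0.94 to -0.52, with a median of -0.74 and limma adjusted p from 0.340 to 0.873. The groups were apart on 4 of the 7, the 4 brightest, where 6.07% of all probe sets were apart and lower. On all 7 the lowest array was cKO 2. Without it the 7 values ran from -0.56 to -0.25, without cKO 3 from -1.33 to -0.53, and without WT 3 from -0.73 to -0.32. On the second brightest, for example, cKO 2 read 5986 against 8745 on cKO 1 and 10272 on cKO 3, where WT ran from 11548 to 14489.

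The arrays numbered 3 separated the Ccnd2 probe sets from each other. On the brightest, WT 3 lay 0.09 (log2) above the mean of the other WT arrays and cKO 3 lay 0.01 above the other cKO arrays. On the 3 dimmest, WT 3 lay 0.46 to 0.85 above and cKO 3 lay 0.89 to 1.28 above, and there cKO 3 exceeded WT 1. On the dimmest, cKO 3 read 322 against 191 on WT 1. Erythroid markers were high on these arrays too, and meningeal and mesenchymal markers summed to 2137 on cKO 3 against 304 to 674 on the others. Their part in the Ccnd2 values was not tested. Without both arrays numbered 3, the brightest probe set had a log2 fold change of -0.50 (limma adjusted p = 0.569).

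**Figure D3:**
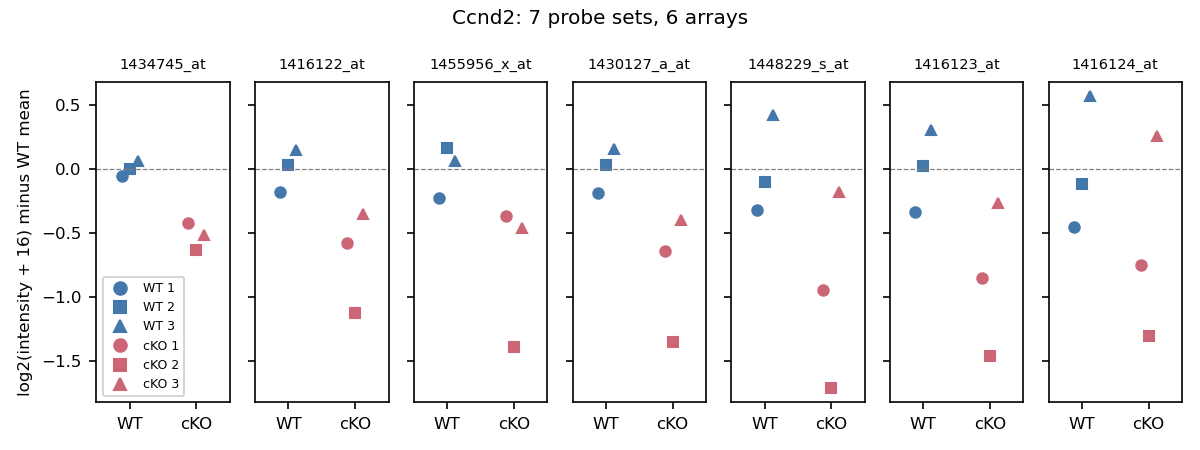
Log2(intensity + 16) minus the WT mean for the 7 probe sets of Ccnd2, from the brightest at the left to the dimmest at the right, with 1 point per array. cKO 2 is the lowest array on all 7, and on the 3 at the right cKO 3 (triangle) lies above WT 1.

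Ccnd1, another D-type cyclin, had log2 fold changes of 0.09, -0.04 and -0.19 on its 3 probe sets. On the brightest it read 924 on WT 1, 637 on WT 2 and 1438 on WT 3, and 1074 on cKO 1, 937 on cKO 2 and 1018 on cKO 3. The cKO arrays lay inside the WT range, and WT 3 was the highest of the 6 arrays on all 3 probe sets. The 6 ventral telencephalon markers also summed highest on WT 3, to 3904 against 2609 and 2850 on the other WT arrays and 3245 to 3692 in cKO. Of these, Dlx1, Dlx2 and Dlx5 were highest on WT 3. Gad1 and Nkx2-1 were instead higher on every cKO array than on any WT array (log2 fold changes 0.48 and 1.01, limma adjusted p = 0.519 and 0.503), and Gad2 was highest on cKO 1. Their part in the Ccnd1 values was not tested. The 95% interval of the brightest probe set, -0.62 to 0.79, leaves room for a change of either sign. Without both arrays numbered 3, the brightest came to 0.38 (limma adjusted p = 0.801) and the other 2 probe sets to 0.13 and 0.12, and without WT 2 the brightest turned to -0.19.

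Ccnd3, the remaining D-type cyclin, read 493, 421 and 567 on WT 1, 2 and 3 and 530, 455 and 583 on cKO 1, 2 and 3, on its brightest probe set. The groups interleaved, with a log2 fold change of 0.08 (SE 0.18, 95% interval -0.34 to 0.51, limma adjusted p = 0.979). Its other 2 probe sets were dim, with group means from 13.6 to 38.5, and gave -0.08 and 0.71 with overlapping groups.

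Ccne2, an E-type cyclin of S phase entry, was lower in cKO. Its intensity was 576 on WT 1, 679 on WT 2 and 663 on WT 3, and 377 on cKO 1, 398 on cKO 2 and 450 on cKO 3. No cKO array reached the lowest WT array. The means were 639 ± 55.3 and 408 ± 37.3 (SD, n = 3), giving a log2 fold change of -0.63 (SE 0.15, 95% interval -0.98 to -0.27). This did not pass over all probe sets (limma adjusted p = 0.277), and without both arrays numbered 3 it was -0.67 (limma adjusted p = 0.461). Its paralogue Ccne1 had log2 fold changes of -0.26 and -0.17 on 2 probe sets, both with overlapping groups. On the brighter it ran from 292 to 374 in WT and from 223 to 317 in cKO, with cKO 2 the lowest (95% interval -0.73 to 0.20, limma adjusted p = 0.869).

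Ccna2, the A-type cyclin of dividing somatic cells, read 2705 on WT 1, 3021 on WT 2 and 3018 on WT 3, and 2675 on cKO 1, 2402 on cKO 2 and 2559 on cKO 3. The groups were apart by the small gap between WT 1 and cKO 1. The log2 fold change was -0.19 (SE 0.14, 95% interval -0.52 to 0.14, limma adjusted p = 0.862). Its second probe set gave -0.28 with overlapping groups.

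Ccnb2, a B-type cyclin of mitosis, had the smallest standard error of the 21 probe sets. It read 1604 on WT 1, 1616 on WT 2 and 1733 on WT 3, and 1735 on cKO 1, 1671 on cKO 2 and 1681 on cKO 3. The groups interleaved. The means were 1651 ± 71.2 and 1696 ± 34.3 (SD, n = 3), with a log2 fold change of 0.04 (SE 0.13, 95% interval -0.27 to 0.35, limma adjusted p = 0.991). Its sign turned when arrays were centred on their medians, to -0.011.

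Cell type markers gave the setting of these mitotic values. The radial glia list, the cortical stem cells that divide at the ventricle, summed to 40184 to 49673 in WT and 40998 to 47595 in cKO. That of intermediate progenitors, their dividing offspring, summed to 17007 to 18786 in WT and 15886 to 19784 in cKO. Both lists overlapped between groups. The radial glia sum rests mostly on Fabp7 and Vim, with WT means of 22184 and 15109. Of its 7 members 3 were higher and 4 lower in cKO, and limma called 0. Only Nes had groups apart, at 1011 to 1313 in WT and 1468 to 1507 in cKO (0.30, limma adjusted p = 0.752). Over all 18193 genes, 1438 were apart and higher. The 5 intermediate progenitor markers did not move one way, and limma called 0 of them after adjustment. At an unadjusted p under 0.05 there were 2, Neurog1 and Eomes, where 3.8% of all genes were lower at that p. Neurog1 was lower in cKO with no overlap, from 183 to 233 against 472 to 711 in WT (log2 fold change -1.32, limma adjusted p = 0.0945). Eomes was also lower with no overlap, from 2783 to 3404 against 4689 to 5062 in WT (log2 fold change -0.63, limma adjusted p = 0.264). Neurog2 was higher with no overlap (0.13, limma adjusted p = 0.921), and Insm1 (0.44) and Btg2 (-0.05) had overlapping groups. The endothelium list was, beside that of germ cells, the one marker list whose sums did not overlap between groups, at 1180 to 1287 in WT and 898 to 1039 in cKO, with 5 of 6 members lower. Their part in the cyclin values was not tested.

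Among 80 other regulators of the cyclin and CDK system, each represented by its brightest probe set, 1 rose and 0 fell past the threshold in limma. Over 18193 genes 0.291% rose and 0.0824% fell by that measure. At an unadjusted p under 0.05, 3 of the 80 were higher and 3 lower, where 4.74% and 3.8% of all genes were. The groups did not overlap on 5 of the 80 that were higher and 8 that were lower. Over all 18193 genes, 1438 and 1390 were apart in those directions, so groups being apart does not by itself mark a regulator. The median log2 fold change of the 80 was -0.06, with 29 higher and 51 lower, beside 0.01 over all genes.

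The riser was Ccny, cyclin Y, an atypical cyclin anchored at the plasma membrane that partners the CDK14 family in Wnt receptor phosphorylation. Its brightest probe set read 1807 on WT 1, 2104 on WT 2 and 2223 on WT 3, and 5548 on cKO 1, 4761 on cKO 2 and 5784 on cKO 3. Every cKO array was well above every WT array. The means were 2045 ± 214 and 5364 ± 536 (SD, n = 3), giving a log2 fold change of 1.38 (SE 0.16, 95% interval 1.00 to 1.77, limma adjusted p = 0.0367).

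All 7 Ccny probe sets were higher in cKO, with a median log2 fold change of 1.54. Of these, 3 rose past the threshold, 6 had an unadjusted p under 0.05 and 6 had groups that did not overlap. Over all probe sets, 0.224% rose past the threshold, 4.57% were higher at that unadjusted p and 7.47% were apart and higher. The 7 probe sets belong to 1 gene and are not independent, and Ccny was singled out by its call. The largest called value was 2.01 (SE 0.16, limma adjusted p = 0.00992), from 514 ± 26.8 to 2138 ± 290 (SD, n = 3). On the probe set whose groups overlapped, both arrays numbered 3 were the lowest of their group, at 38.3 on WT 3 and 87.9 on cKO 3. All 3 calls ended in each of the 6 fits that left out 1 array. There the brightest probe set ran from 1.30 to 1.47 (limma adjusted p from 0.116 to 0.186), and the probe set with the largest called value ran from 1.91 to 2.08 (limma adjusted p from 0.0505 to 0.0703). Without both arrays numbered 3 the brightest was at 1.39 (limma adjusted p = 0.289). Its paralogue Ccnyl1 was at 0.05 (limma adjusted p = 0.991).

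**Figure D4:**
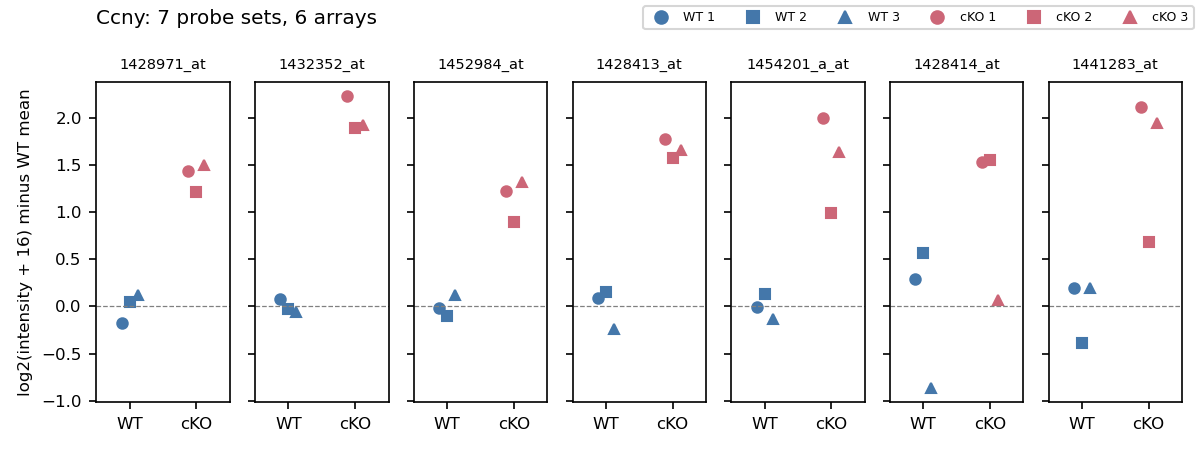
Log2(intensity + 16) minus the WT mean for the 7 probe sets of Ccny on the 6 arrays, from the brightest at the left to the dimmest at the right. WT and cKO arrays are apart on 6 of the 7, and on the other one both arrays numbered 3 (triangles) are the lowest of their group.

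The remaining regulators gave no call in limma. Their values are those of the brightest probe set, and other probe sets of the same gene did not always share its sign. Among the 17 other cyclins, Ccny included, the median was 0.10. Ccnf, the F-box cyclin that limits centrosome duplication, was at -0.25 and Ccnt2, a partner of the elongation kinase CDK9, at 0.27. The 8 CDKs and their Cks subunits had a median of -0.12, and 1 of them had an unadjusted p under 0.05. This was Cdk6, a kinase partner of the D-type cyclins, whose arrays ran from 1456 to 1728 in WT and from 1053 to 1244 in cKO with no overlap (log2 fold change -0.41, SE 0.15, limma adjusted p = 0.562). Cks2 was at -0.29 and Cks1b at -0.13.

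CDK inhibitors, which hold cyclin complexes in check, had a median of -0.17 over 7 genes, and 6 of them were lower. The exception was Cdkn1c, the inhibitor p57, an imprinted gene that promotes cell cycle exit. It read 1620 on WT 1, 1671 on WT 2 and 3370 on WT 3, and 5598 on cKO 1, 3918 on cKO 2 and 7127 on cKO 3. The arrays numbered 3 were the highest of their groups, yet the groups were apart. The log2 fold change of 1.36 (SE 0.36) did not pass (limma adjusted p = 0.339). Cdkn1b was at -0.37 and Cdkn1a at -0.17.

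The retinoblastoma and E2F list of 13 genes had a median of -0.03. E2f5, an E2F factor linked to repression, ran from 997 to 1070 in WT and from 1186 to 1535 in cKO, without overlap (0.42, limma adjusted p = 0.577), and the dimerisation partners Tfdp2 and Tfdp1 were at 0.20 and -0.16. In the list of CDK phosphorylation (7 genes, median -0.09), Cdc25c, a phosphatase that activates CDK1 with cyclin B, ran from 435 to 460 in WT and from 230 to 308 in cKO. Its groups did not overlap, but at -0.72 (SE 0.16) it did not pass over all probe sets (limma adjusted p = 0.231). Its second probe set was at -0.28 with overlapping groups. Pkmyt1 was at 0.28 and Wee1 at -0.19, both kinases that restrain CDK1, but their second probe sets had the other sign, at -0.10 and 0.41.

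The cyclin degradation list of 22 genes had a median of -0.06 with 15 lower. Fbxw7, the F-box protein that targets cyclin E, ran from 1411 to 1525 in WT and from 1153 to 1209 in cKO, without overlap (-0.32, limma adjusted p = 0.620). Fbxo4 was at -0.26 and Anapc11, a subunit of the anaphase-promoting complex, at -0.34. The 6 genes of mitotic transcription had a median of -0.02, with Foxm1 at -0.24, Mybl2 at -0.20 and Lin9 at 0.23.

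**Figure D5:**
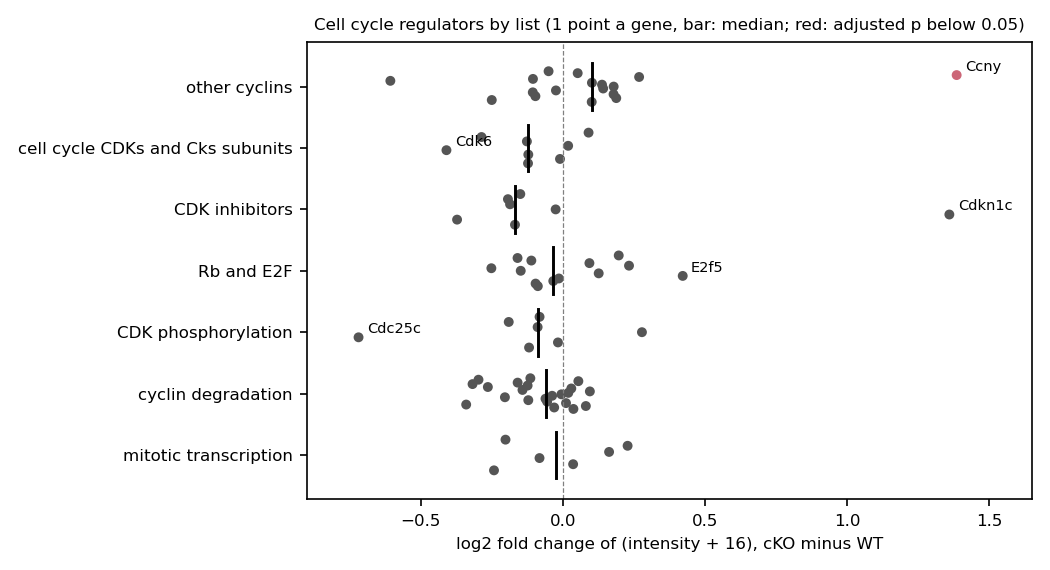
Log2 fold change (cKO minus WT, of intensity plus 16) of 80 regulators in 7 lists, 1 point per gene at its brightest probe set, with the median of each list as a bar. Ccny, in red at 1.38, was the one gene past the threshold, and Cdkn1c lies beside it at 1.36.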

How the data were processed

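The authors deposited intensities on a linear scale in 1 table, with a column for each array. They were made with the Affymetrix Expression Console, per the submitters' processing notes, whose version and algorithm are not stated in these sources. The mean after trimming 2% of probe sets at each end was 497.2 to 497.7 on every array, so the intensities share a scaling. Median intensities ran from 91.1 to 119. The number of arrays limits the precision, and detection calls were not used.

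The fit used log2(intensity + 16) without further scaling, as array medians differed by 0.33. A linear model of genotype alone was fitted to all 45037 probe sets with limma 3.58.1 (lmFit, eBayes) in R 4.3.3, calling probe sets at a Benjamini-Hochberg adjusted p below 0.05. Fold changes are cKO minus WT, and intervals are moderated 95% intervals. Gene names come from the platform annotation. It gives 1 gene to 34945 probe sets, several to 932 and none to 9160. Compared through Entrez identifiers with RefSeq (GRCm38.p6), 0 symbols had changed. The members, lists and alternatives were chosen with earlier results of these data known. Named are all members with all probe sets, regulators past the threshold or with the 3 smallest p of their list, and the 5 genes closest to Ccnb3. Ccnyl1, Setdb1, the sex-linked genes and the germ cell, intermediate progenitor and ventral markers other than the brightest of each list fall outside that rule and were chosen after their values were seen. The fit was tested on simulated data, with 50 changed probe sets, picked at random, at each size of change. The noise was normal and independent between arrays, without the shared deviation of the arrays numbered 3. Changes were made on the log2(intensity + 16) scale, so on dim probe sets they are not intensity folds. In that setting the fit called 0% of 1.5-fold, 2% of 2-fold, 78% of 4-fold and 92% of 8-fold changes. The lack of a call for a change of 2-fold or less therefore says little.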

Additional observations from a re-analysis of the deposited data

How the results depend on the processing

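Limits first: each group had 3 arrays, probe sets of 1 gene are not independent, and values near the pseudocount have no reliable size. Over 16 alternatives, Ccnb3 ranged from 2.97 to 5.81 on the log2 scale and was called in 13 of the 15 in which it was tested. With probe sets below the median mean left out it was too dim to be tested, so 0 cyclin probe sets rose there. With the replicate block, 0 cyclin probe sets were called and Ccnb3 was at 4.41 (limma adjusted p = 0.0818). The numbers in the titles were not taken to pair the arrays. Deviations from the group means correlated across probe sets at 0.08, 0.19 and 0.41 for numbers 1, 2 and 3, and WT 1 correlated best with cKO 2, at 0.11. No probe set of Ccnd2 or Ccne2 was called or changed sign in any alternative (lowest limma adjusted p = 0.0643 and 0.0977).

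Over all probe sets, the count of rises was 41 with a pseudocount of 1, 166 without dim probe sets, 174 with trend and robust settings, 7 with the replicate block and 8 without both arrays numbered 3. The count of falls was 41 with arrays centred, 7 and 56 with pseudocounts of 1 and 64, 86 without dim probe sets, 83 with trend and robust settings, 44 with 1 row per gene, and 0 both with the replicate block and without the arrays numbered 3. The alternatives for Ccny and the regulators were chosen after seeing the data. Among the regulators 0 genes rose with a pseudocount of 1, with the replicate block, or without both arrays numbered 3.

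In fits that left out 1 array, 19 to 34 probe sets rose and 0 to 2 fell, 0 to 1 cyclin probe sets and 0 regulators rose, and Ccnb3 ran from 4.24 to 4.69. Among the cyclin and Ccny probe sets, signs turned only for values that were not called in any fit. Ccnb2 was at -0.011 with arrays centred. Ccnd1 came to 0.13 and 0.12 on 2 probe sets without both arrays numbered 3, and when 1 array was left out its probe sets ran from -0.19 to 0.39, from -0.21 to 0.10 and from -0.66 to 0.35. In those fits, 2 probe sets of Ccnd3 ran from -0.024 to 0.19 and from -0.26 to 0.10. The causes were not tested.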
